A study of Mus musculus with 32 samples.

Results

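Foam cells made from the macrophages of a pair of mouse strains were compared directly with each other: 4 arrays of DBA/2 macrophages loaded with 100 ug/ml acetylated low density lipoprotein (AcLDL) were set against 4 arrays of AKR macrophages loaded with the same dose. These 8 arrays were chosen by their labels alone from the 32 arrays of the series. The cells were bone marrow derived macrophages of female mice that lacked the gene for apolipoprotein E (ApoE-/-) and were fed chow, so both strains carried the deletion, and cells of each strain were also kept without AcLDL (4 unloaded DBA/2 and 4 unloaded AKR arrays on the same version of the chip). The mice were 16 weeks old, the marrow was differentiated with L-cell conditioned medium as a source of M-CSF, and AcLDL was given for 1 day. A further 16 arrays of male ApoE-/- cells, loaded with 50 ug/ml of another AcLDL preparation or left unloaded, were hybridised to a later chip version and enter only the last comparison. The methods describe quadruplicate dishes and do not say whether they came from separate mice, so p-values measure the spread between these samples, which may be technical.

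Macrophages take up AcLDL through scavenger receptors, which are not shut down as the cell fills with cholesterol. An acid lipase frees the sterol of the particle, ABC transporters can pass it on to HDL, and what is left over is kept as ester, which gives foam cells their name. Free cholesterol in the membrane of the endoplasmic reticulum can set off the integrated stress response, in which the transcription factor ATF4 and its target CHOP switch on genes for amino acid uptake and synthesis, for charging of tRNAs and for feedback on the response itself. DBA/2 mice are known as prone to atherosclerosis and AKR mice as resistant to it.

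Levels are given as log2 of the normalised array intensity, a level followed by ± is the mean and SD of 4 arrays, and a difference is DBA/2 minus AKR on the log2 scale with its SE, so that a positive value is higher in DBA/2 foam cells. The number of arrays limits the precision. Adjusted p is limma's moderated test with Benjamini-Hochberg adjustment over all probes kept, and a difference was called at an adjusted p below 0.01. The interaction is the strain difference in foam cells minus the strain difference in unloaded cells, and its test asks whether the 2 strain differences are the same. Each gene was read from its brightest probe. Detection above background was not tested, and in 14 of the called genes named below 1 strain lay below the table median of 5.98 (Fcer1g, Fggy, Phgdh, Slc1a4, Tesk1, Thumpd1 and Tlr1 with low DBA/2 values, and Cxcl14, Dcn, Dcstamp, Ero1b, Pilrb1, Vill and Vldlr with low AKR values). The sizes of these differences are uncertain. They are lower bounds only if the probe binds equally well in both strains, which was not tested. All 8 foam cell arrays correlated best with the other arrays of their own group (r with their own group of 0.9954 to 0.9969 for DBA/2 and 0.9965 to 0.9974 for AKR, and at most 0.9911 with any other group). The Apoe probe read 8.11 ± 0.11 in DBA/2 and 8.13 ± 0.13 in AKR foam cells, with a difference of -0.016 ± 0.079, adjusted p = 0.898, and whether it lies within the deleted stretch of the gene was not tested.

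The start regions of 3 genes of the ATF4 and amino acid lists are printed first, as an example of members that were lower together in DBA/2 foam cells. Chac1 encodes an enzyme that breaks down glutathione, Trib3 a pseudokinase that restrains ATF4 and CHOP, and Asns asparagine synthetase. The promoters (250 bases before to 50 after the start of the gene, RefSeq, GRCm38.p6) are those at chr2:119350992-119351291 on the forward strand, chr2:152344011-152344310 on the reverse strand and chr6:7693160-7693459 on the reverse strand, printed 5′ to 3′ on the strand of the gene. Capitals mark the one match of each to the C/EBP-ATF element, a composite site bound by ATF4 with C/EBP proteins, searched as TGATGNAA on both strands.
Chac1: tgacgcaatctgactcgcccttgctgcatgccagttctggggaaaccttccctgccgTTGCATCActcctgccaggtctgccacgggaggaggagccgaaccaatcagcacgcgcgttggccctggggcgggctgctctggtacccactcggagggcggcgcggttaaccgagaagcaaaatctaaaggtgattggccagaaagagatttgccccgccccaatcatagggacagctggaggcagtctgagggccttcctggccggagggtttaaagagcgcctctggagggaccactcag
Trib3: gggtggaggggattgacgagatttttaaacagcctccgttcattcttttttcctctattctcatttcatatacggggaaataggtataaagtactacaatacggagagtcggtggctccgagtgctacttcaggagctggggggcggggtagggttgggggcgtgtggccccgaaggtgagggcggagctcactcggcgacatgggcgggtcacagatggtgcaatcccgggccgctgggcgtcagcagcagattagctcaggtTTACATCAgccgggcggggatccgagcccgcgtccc
Asns: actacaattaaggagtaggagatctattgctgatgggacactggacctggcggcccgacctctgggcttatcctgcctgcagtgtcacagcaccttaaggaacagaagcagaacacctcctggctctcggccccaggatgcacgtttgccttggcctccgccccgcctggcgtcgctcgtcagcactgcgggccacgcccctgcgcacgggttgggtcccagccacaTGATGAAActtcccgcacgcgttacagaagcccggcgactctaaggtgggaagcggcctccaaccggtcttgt
The match began 193 bases before the start of Chac1 and 14 bases after that of Trib3, both on the opposite strand, and 23 bases before the start of Asns on the given strand. The element was present in 3.97% of all 32851 mouse promoters at hand, and in 4.51% of the 27025 genes with a promoter at hand. In the ATF4, amino acid and tRNA synthetase lists, it was found in 7 of the 24 such genes that were lower in DBA/2 foam cells (29.2%). It was found in 2 of the 6 that were higher and in 15 of all 44 measured members with a promoter (34.1%). The element was thus no more frequent among the lower genes than in the lists as a whole. A match is a string of letters, and binding was not measured.

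DBA/2 and AKR foam cells differed in 2770 of the 9312 genes measured above the median level of the table (29.7%), of which 1406 were higher (15.1%) and 1364 lower (14.6%) in DBA/2. The median absolute difference was 0.42 over the called genes and 0.15 over all genes, and 297 genes (3.19%) differed at least 2-fold, 183 higher (1.97%) and 114 lower (1.22%) in DBA/2. Counted by probe, 3838 of 13339 were called (28.8%), 1838 higher (13.8%) and 2000 lower (15.0%). The 4 DBA/2 and the 4 AKR values did not overlap in 3416 genes (36.7%).

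The unloaded cells of the same strains gave the background for this comparison. Between the unloaded strains 2626 genes were called (28.2%), 14.3% of all genes being higher and 13.9% lower in DBA/2. Of the 2770 genes, 1379 were also called between the unloaded strains (14.8% of all genes), 1218 of them in the same direction (13.1%) and 161 in the opposite one (1.73%). The other 1391 genes were called in foam cells and not in unloaded cells (14.9%), and the interaction passed its own test in 589 of them (6.33% of all genes). Over all genes the interaction was called in 1473 (15.8%), with a positive sign in 709 (7.61%) and a negative one in 764 (8.20%), and 969 of the 2770 were called both for the foam cells and for the interaction (10.4%). By probe the interaction was called in 1980 (14.8%). Across the 9312 genes the strain difference in foam cells correlated with that in unloaded cells (r = 0.68), where both differences were read with the same probes and from arrays normalised together. Genes are not independent replicates.

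**Figure D1:**
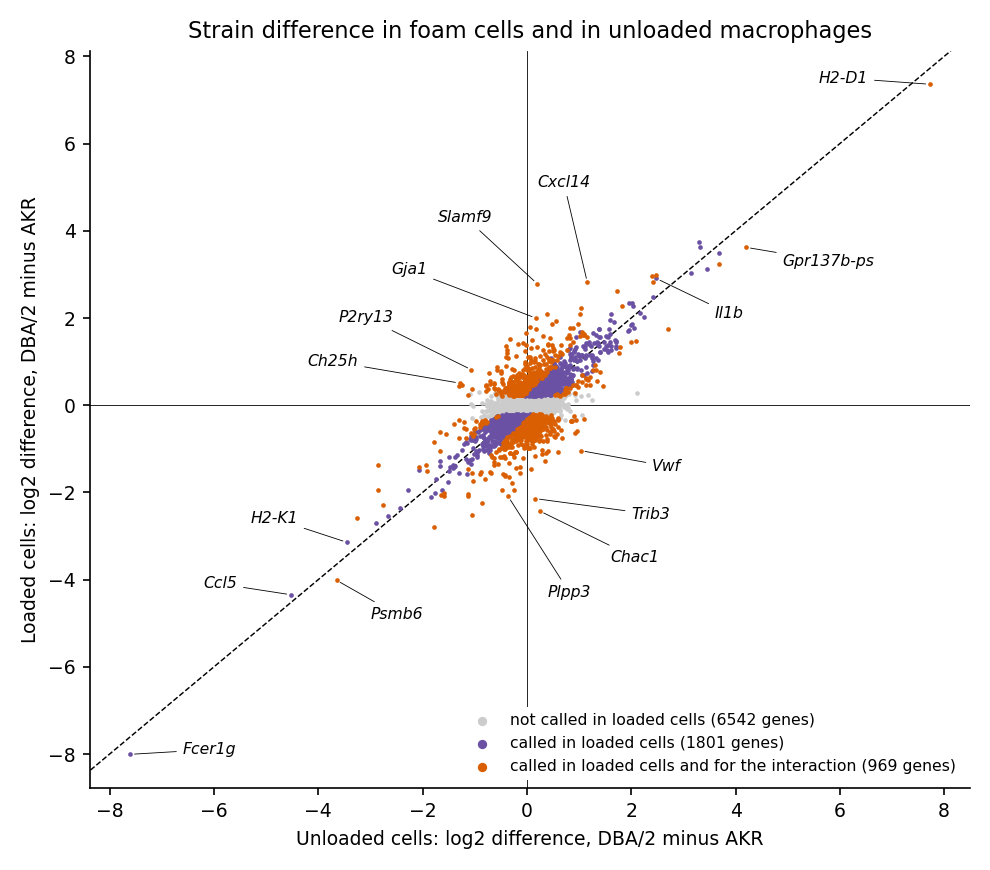
Strain difference (DBA/2 minus AKR, log2) of each of the 9312 genes in foam cells (vertical axis) against that in unloaded cells (horizontal axis), with genes not called in foam cells in grey, called ones in purple and those also called for the interaction in orange. Most of the largest differences, such as Fcer1g and H2-D1, lie near the diagonal, while Slamf9, Chac1 and Trib3 lie far from it.

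The 12 genes that stood highest in DBA/2 foam cells had differences of 2.82 to 7.36, and the 12 that stood lowest -2.28 to -8.01. These genes were taken from those without overlap between the foam cells of the strains. In 23 of the 24 the difference was called in unloaded cells too, in the same direction (all but Chac1). The largest in each direction were read from the probes for H2-D1 and for Fcer1g. The probe for H2-D1, a class I heavy chain on chromosome 17, read 13.94, 13.81, 13.85 and 13.88 in DBA/2 foam cells, against 6.51, 6.61, 6.50 and 6.41 in AKR foam cells. The probe for Fcer1g, the signalling gamma chain shared by activating Fc receptors (chromosome 1), read 5.91, 5.76, 5.84 and 6.10 in DBA/2 foam cells, against 13.93, 13.75, 13.94 and 14.001 in AKR foam cells, the DBA/2 values lying below the median of the table. AKR and DBA/2 mice carry different class I alleles, and 19 of the 24 genes rest on a single probe. Whether a probe lies over a base that differs between the strains was not tested. The paper excluded probes over such bases before its tests. Its table of leading differences between unloaded cells of this experiment holds H2-D1, Psmb6, Ccl5 and Prcp, but not Fcer1g. Here the Fcer1g probe differed by -7.60 in unloaded cells (adjusted p = 1.57e-23). Whether this probe was among those the paper excluded was not tested.

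Prcp, a lysosomal carboxypeptidase that cleaves angiotensin and kinin peptides, read 11.27, 11.33, 11.32 and 11.21 in DBA/2 foam cells, against 7.67, 7.56, 7.72 and 7.71 in AKR foam cells. The strains stood far apart, with a 12.3-fold higher level in DBA/2 (3.62 ± 0.065, adjusted p = 2.09e-23). Cd300ld, an immunoglobulin-like receptor of myeloid cells, read 9.72, 9.85, 9.68 and 9.66 in DBA/2 foam cells, against 6.66, 6.80, 6.76 and 6.79 in AKR foam cells, and was 7.85-fold higher in DBA/2 (2.97 ± 0.073, adjusted p = 1.24e-20). Stab2, a scavenger receptor for hyaluronan and for phosphatidylserine on dying cells, was higher as well (9.19 ± 0.18 in DBA/2 and 6.06 ± 0.11 in AKR foam cells, difference 3.13 ± 0.084, adjusted p = 6.72e-20). Pilrb1, an activating receptor, read 9.31 ± 0.11 in DBA/2 and was below the table median in AKR at 5.58 ± 0.17. Cytip, which binds the cytohesin regulators of adhesion, differed by 2.98 ± 0.072, adjusted p = 9.49e-21.

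Among secreted factors, Il1b (interleukin 1 beta) read 8.98, 9.21, 9.04 and 9.05 in DBA/2 foam cells, against 6.12, 6.23, 6.13 and 6.17 in AKR foam cells, a difference of 2.91 ± 0.11, adjusted p = 1.08e-16, and no AKR value came near the lowest DBA/2 value. The chemokine Cxcl14 read 8.32, 8.52, 8.74 and 8.78 in DBA/2 foam cells, against 5.76, 5.82, 5.70 and 5.83 in AKR foam cells, all AKR values lying below the table median, and its 2 probes gave differences of 2.44 and 2.82. The chemokine Ccl5 went the other way, with 7.52, 7.11, 7.34 and 7.38 in DBA/2 foam cells, against 11.81, 11.58, 11.75 and 11.58 in AKR foam cells (-4.34 ± 0.088, adjusted p = 2.03e-22). The remaining genes with the largest positive differences were H2-Q6, a class I gene with 2 probes at 3.02 and 5.24, Gpr137b-ps (3.62), a pseudogene by the updated annotation, Vill, which resembles the actin-binding protein villin (3.49), and Sfi1, which binds centrins (2 probes, 1.77 and 3.24). The Gpr137b-ps probe differed by 4.21 in unloaded cells. The paper lists a difference of 4.2 there under the receptor gene Gpr137b.

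On the lower side, Psmb6, a catalytic subunit of the proteasome, read 8.03 ± 0.063 in DBA/2 and 12.04 ± 0.072 in AKR foam cells (-4.01 ± 0.064, adjusted p = 3.05e-24). Folr2, a folate receptor of tissue macrophages, differed by -2.58 ± 0.11, adjusted p = 5.05e-16. Tesk1, a kinase that acts on cofilin, read 6.23, 6.06, 5.89 and 5.73 in DBA/2 foam cells, against 8.38, 8.71, 8.33 and 8.58 in AKR foam cells, and its AKR level was higher in foam cells than the 7.05 ± 0.22 of unloaded AKR cells, with an interaction of -1.48 ± 0.17, adjusted p = 3.78e-07. Clba1, a clathrin-binding protein, differed by -2.80 ± 0.091, adjusted p = 4.56e-18, also with an interaction (-1.03 ± 0.13, adjusted p = 2.12e-06). Necap2, an adaptor of clathrin-coated vesicles (-2.53), Thumpd1 (-2.35) and Fggy, of the carbohydrate kinase family (-2.28), completed the list with Fgfr1op2, whose 2 probes gave -2.69 and -0.68. Of the class I heavy chain H2-K1 no direction can be given, since its 2 probes read -3.14 and 0.36.

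A different set of genes stood apart when the foam cells were compared against the unloaded strain difference. Of the 16 genes with the largest interactions among those called in foam cells, 7 were not called between unloaded strains, 8 were called there in the opposite direction and 1 in the same direction. These genes were chosen by the interaction, so this split follows in part from the choice. Slamf9, a receptor of the SLAM family, read 10.40, 10.55, 10.56 and 10.55 in DBA/2 foam cells, against 7.70, 7.62, 7.83 and 7.75 in AKR foam cells, whereas unloaded cells were close, at 10.36 ± 0.13 in unloaded DBA/2 and 10.16 ± 0.24 in unloaded AKR cells. The strain difference was 2.79 ± 0.092, adjusted p = 5.66e-18 in foam cells and 0.19 ± 0.092, adjusted p = 0.0979 in unloaded cells, and the interaction was 2.60 ± 0.13, adjusted p = 2.85e-12. Gja1, the gap junction protein connexin 43, had the same form, with 10.70, 10.82, 10.60 and 10.69 in DBA/2 foam cells, against 8.63, 8.56, 8.77 and 8.85 in AKR foam cells and an unloaded level of 10.90 ± 0.10 in unloaded DBA/2 and 10.73 ± 0.098 in unloaded AKR cells. Its interaction was 1.83 ± 0.11, adjusted p = 2.16e-11. In both genes the AKR foam cells were the group that stood apart from the other 3.

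Dner, a transmembrane protein that can bind Notch receptors, read 7.88, 8.15, 8.16 and 8.08 in DBA/2 foam cells, against 6.22, 6.44, 6.22 and 6.21 in AKR foam cells, and the unloaded strains lay within 0.052 of each other. The DBA/2 foam cells lay above the unloaded level of their strain (6.78 ± 0.12) and the AKR foam cells below that of theirs (6.72 ± 0.10). S100a8, a calcium-binding alarmin abundant in neutrophils and inducible in macrophages, read 10.47 ± 0.29 in DBA/2 and 8.94 ± 0.075 in AKR foam cells, against 8.33 ± 0.082 in unloaded DBA/2 and 8.65 ± 0.25 in unloaded AKR cells. Serpinb2, an inhibitor of plasminogen activators, differed by 1.36 ± 0.11, adjusted p = 4.28e-10 in foam cells and by -0.39 ± 0.11, adjusted p = 0.00777 in unloaded cells.

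P2ry13 (a receptor for ADP), Ch25h (cholesterol 25-hydroxylase, whose product is an oxysterol) and Cxcl13 (a chemokine for B cells) were lower in unloaded DBA/2 than in unloaded AKR cells, by -1.06, -1.29 and -1.30, and higher in DBA/2 than in AKR foam cells. Ch25h read 6.63, 7.02, 6.80 and 7.20 in DBA/2 foam cells, against 6.45, 6.55, 6.33 and 6.28 in AKR foam cells, and the interaction was 1.80 ± 0.14, adjusted p = 1.68e-09. For P2ry13 the foam cell difference was 0.81 ± 0.089, adjusted p = 5.22e-08 and for Cxcl13 0.43 ± 0.12, adjusted p = 0.00661. The call for Cxcl13 was lost, at adjusted p of 0.0101 to 0.042, without any 1 of 7 of the 8 foam cell arrays, without the filter on dim probes and with a constant added to the intensities.

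The interactions of opposite sign were led by stress genes. Chac1 read 6.37, 6.46, 6.20 and 6.16 in DBA/2 foam cells, against 8.84, 8.65, 8.61 and 8.81 in AKR foam cells. The AKR foam cells lay apart from all other groups, since unloaded cells read 6.04 ± 0.13 in unloaded DBA/2 and 5.79 ± 0.25 in unloaded AKR cells, and the strain difference in foam cells was -2.43 ± 0.10, adjusted p = 5.34e-16, against 0.25 ± 0.10, adjusted p = 0.0502 in unloaded cells. Trib3 read 7.02, 6.81, 7.09 and 7.19 in DBA/2 foam cells, against 9.13, 9.13, 9.20 and 9.21 in AKR foam cells, and its 3 probes gave differences of -2.14 to -0.78, each of them called. Unloaded cells read 6.71 ± 0.063 in unloaded DBA/2 and 6.55 ± 0.23 in unloaded AKR cells. Plpp3, a phosphatase of bioactive lysophospholipids, differed by -2.09 ± 0.093, adjusted p = 2.46e-15, and Spsb4, a substrate receptor of a ubiquitin ligase, by -1.94 ± 0.084, adjusted p = 1.4e-15.

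Vwf, the von Willebrand factor, changed sides. It was lower in DBA/2 foam cells, at 8.18 ± 0.17 in DBA/2 and 9.22 ± 0.050 in AKR foam cells, and higher in unloaded DBA/2 cells, at 8.28 ± 0.12 in unloaded DBA/2 and 7.24 ± 0.15 in unloaded AKR cells. The same crossing was seen in Eno2, the neuronal form of the glycolytic enzyme enolase (-1.07 in foam cells and 0.60 in unloaded cells), in Hyal1, a lysosomal hyaluronidase (-1.27 and 0.35), and in the chemokine Ccl4 (-0.65 and 0.93). The 16 interactions lay between 1.74 and 2.60 on the positive side and between -1.57 and -2.68 on the negative side.

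**Figure D2:**
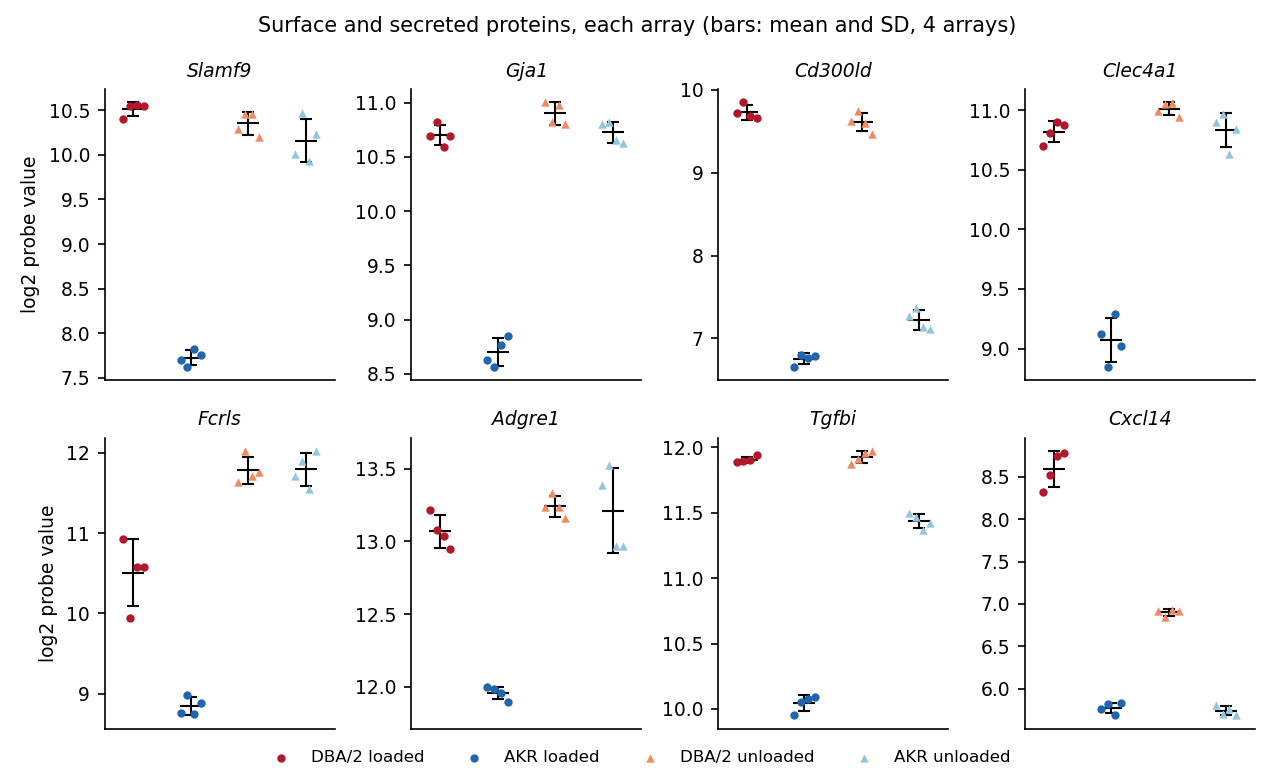
Level (log2 intensity) of 8 cell surface and secreted genes in each array, with DBA/2 foam cells left of AKR foam cells and unloaded cells beside them, and bars for the mean and SD of 4 arrays. Points are single arrays, and in each of the 8 genes the 4 DBA/2 foam cell values lie above the 4 AKR foam cell values.

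Counts in the gene lists below stand against the shares over all genes, 15.1% called higher and 14.6% called lower. The ATF4 and CHOP list was lower in DBA/2 foam cells. Of 20 genes measured above the filter, 11 were lower and 2 higher, with a median difference of -0.37, against 0.0072 over all genes, and the interaction was called negative in 13 and positive in none of them. The list had stood the other way in unloaded cells, where 10 were higher in DBA/2, none was lower and the median was 0.27. Atf4 itself, the factor whose name the list carries, read 10.59, 10.60, 10.61 and 10.59 in DBA/2 foam cells, against 11.21, 11.33, 11.26 and 11.35 in AKR foam cells. Its difference was -0.69 ± 0.066, adjusted p = 5.24e-09 in foam cells and 0.17 ± 0.066, adjusted p = 0.0403 in unloaded cells. Ddit3, which encodes CHOP, read 8.80, 8.84, 8.77 and 8.72 in DBA/2 foam cells, against 9.32, 9.39, 9.35 and 9.30 in AKR foam cells and differed by -0.56 ± 0.074, adjusted p = 1e-06, whereas unloaded DBA/2 cells were higher than unloaded AKR cells by 0.48 ± 0.074, adjusted p = 1.33e-05.

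Besides Chac1 and Trib3 the largest differences were in Atf5, an ATF4-related factor that acts on mitochondrial stress genes (9.16 ± 0.034 in DBA/2 and 10.33 ± 0.078 in AKR foam cells, difference -1.16 ± 0.068, adjusted p = 4.28e-13), and in Gadd45a, a growth arrest gene (9.09 ± 0.089 in DBA/2 and 10.19 ± 0.12 in AKR foam cells, difference -1.10 ± 0.067, adjusted p = 1.06e-12). The 2 members that were higher in DBA/2 foam cells, Vldlr (a lipoprotein receptor, 1.45) and Ddit4 (an inhibitor of mTORC1 signalling, 0.69), were also higher in unloaded DBA/2 cells, by 1.19 and 0.88. Atf3, a stress factor downstream of ATF4, did not pass the test (0.21 ± 0.082, adjusted p = 0.0437). Of 18 chaperones of the endoplasmic reticulum, which answer to the other branches of the unfolded protein response, 13 did not pass, 3 were higher and 2 lower. The share of this list that was called (27.8%) was close to the 29.7% over all genes. Hspa5, the main chaperone of the compartment, read 7.97 ± 0.15 in DBA/2 and 7.95 ± 0.10 in AKR foam cells (0.015 ± 0.097, adjusted p = 0.917). Xbp1, the factor of the IRE1 branch, was lower (-0.61 ± 0.064, adjusted p = 2.92e-08), and Ero1b, an oxidase of disulfide bonds, was higher (1.84 ± 0.10, adjusted p = 1.72e-13) and had been higher in unloaded DBA/2 cells (2.00).

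Genes of amino acid synthesis and of tRNA charging had the same direction. All 4 members called among 7 of the asparagine, serine and one-carbon list were lower in DBA/2 foam cells. Asns read 7.54, 7.18, 7.47 and 7.38 in DBA/2 foam cells, against 9.37, 9.43, 9.28 and 9.31 in AKR foam cells, a 3.88-fold lower level (-1.95 ± 0.075, adjusted p = 1.21e-16), its second probe differing by -0.37. Mthfd2, an enzyme of mitochondrial one-carbon metabolism, read 8.20, 7.98, 8.33 and 8.22 in DBA/2 foam cells, against 9.64, 9.67, 9.81 and 9.71 in AKR foam cells (-1.52 ± 0.076, adjusted p = 2.06e-14). Psat1 and Phgdh, of serine synthesis, differed by -0.92 and -0.56, the second probe of Psat1 by -0.012. Of these 4, Phgdh was not called between unloaded cells (-0.018 ± 0.081, adjusted p = 0.885), and Asns, Mthfd2 and Psat1 were lower in unloaded DBA/2 cells too, by -0.47, -0.70 and -0.60. The interaction was called in Asns, Mthfd2 and Phgdh.

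Of 12 cytosolic aminoacyl-tRNA synthetases, 8 were lower, none was higher and the median was -0.46. Aars, the alanyl enzyme, read 9.81 ± 0.040 in DBA/2 and 10.70 ± 0.040 in AKR foam cells (-0.89 ± 0.060, adjusted p = 7.27e-12), and Farsa, Sars and Rars, for phenylalanine, serine and arginine, differed by -0.64, -0.63 and -0.61. In unloaded cells 1 of the 12 was higher and 1 lower. Amino acid transporters were divided, with 5 higher (3 without DBA/2 foam cell array 2 or 3) and 6 lower of 14. The lower ones included Slc7a5, the light chain of the leucine transporter (6.60 ± 0.076 in DBA/2 and 7.51 ± 0.056 in AKR foam cells, difference -0.91 ± 0.064, adjusted p = 1.74e-11), and Slc1a4, Slc6a9 and Slc38a2, carriers of small neutral amino acids (-0.81, -0.74 and -0.68). Slc7a11, the cystine and glutamate exchanger and a known ATF4 target, was higher (0.41 ± 0.069, adjusted p = 3.37e-05), as was Slc43a2, a carrier of large neutral amino acids (0.31).

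**Figure D3:**
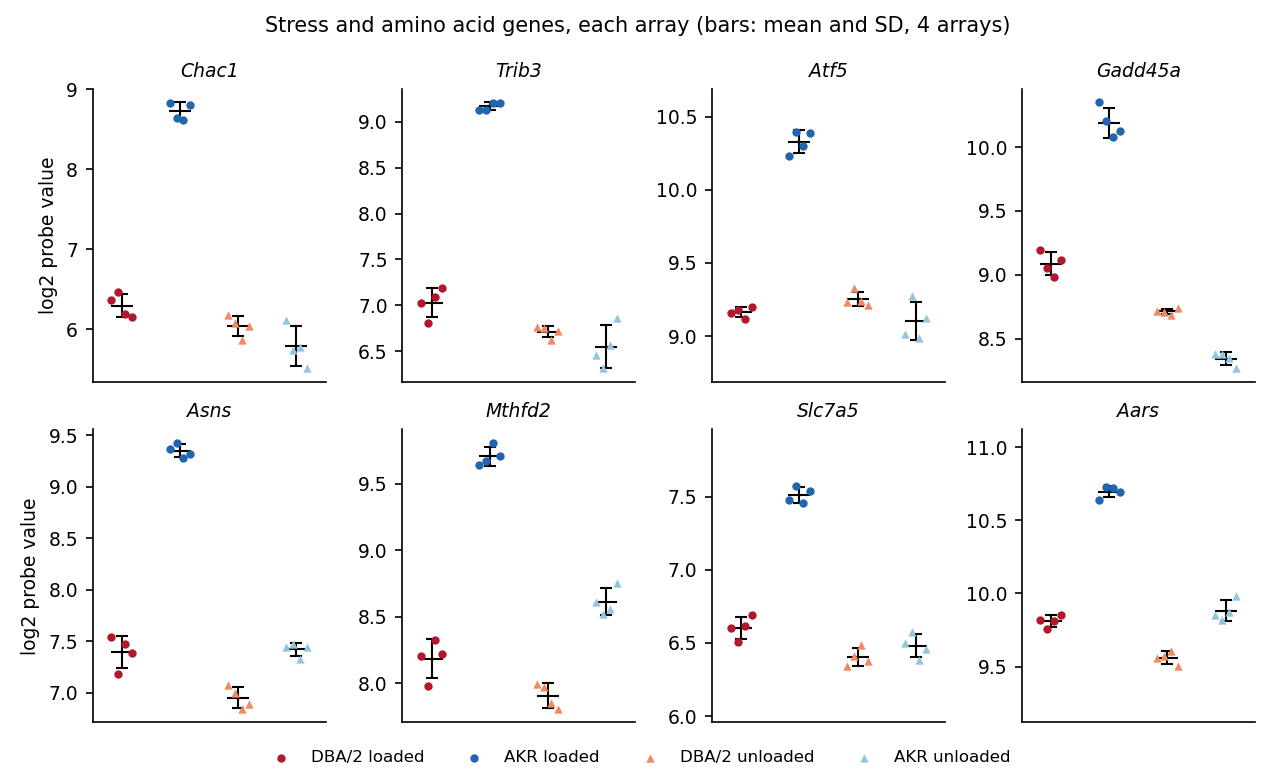
Level (log2 intensity) of 8 genes of the stress, amino acid and tRNA synthetase lists in each array, with DBA/2 foam cells left of AKR foam cells and unloaded cells beside them, and bars for the mean and SD of 4 arrays. In each gene the 4 DBA/2 foam cell values lie below the 4 AKR foam cell values, with means of 6.30 against 8.73 for Chac1.

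Genes of lipid handling were called in both directions. Of 16 genes of lipid droplets and sterol esters 6 were lower and none higher, among them Mgll, a monoacylglycerol lipase (-0.62 ± 0.12, adjusted p = 0.000223), Dgat2, which makes triglyceride (-0.51 ± 0.072, adjusted p = 2.77e-06), Plin3, a droplet coat protein (-0.38), and Hilpda, an inhibitor of triglyceride lipase (-0.32). Hilpda had been higher in unloaded DBA/2 cells (1.10), and its interaction was -1.42 ± 0.11, adjusted p = 6.03e-10. In this droplet and ester list 37.5% were called, against 29.7% of all genes. Of 16 genes of the LXR and sterol export list 6 were lower and 2 higher (Ch25h, and the sterol 27-hydroxylase Cyp27a1, 0.27, whose call was lost without any 1 of 6 foam cell arrays). Nr1h3, the oxysterol receptor LXR alpha, read 8.08 ± 0.086 in DBA/2 and 8.96 ± 0.050 in AKR foam cells (-0.88 ± 0.071, adjusted p = 2.12e-10), and both its probes were lower. Abcg1, the exporter of cholesterol to HDL, read 12.93, 12.95, 12.89 and 12.89 in DBA/2 foam cells, against 13.37, 13.43, 13.34 and 13.40 in AKR foam cells, a difference of -0.47 ± 0.058, adjusted p = 3.64e-07, while the exporter Abca1 did not pass (0.14 ± 0.14, adjusted p = 0.465). The paper describes the Abca1 signal of these arrays as very low, names poor probe design as a possible reason, and measured the gene by qPCR instead. The missing call therefore does not show equal Abca1 levels. Apoc1 and Pltp, a lipoprotein component and the phospholipid transfer protein, differed by -0.75 and -0.71, against -0.70 and -0.90 in unloaded cells.

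Of 9 genes of fatty acid synthesis 4 were lower by their brightest probe, Acaca among them, and 1 higher. Fasn, fatty acid synthase, read 9.44, 9.41, 9.19 and 9.04 in DBA/2 foam cells, against 10.41, 10.63, 10.29 and 10.50 in AKR foam cells (-1.19 ± 0.085, adjusted p = 2.39e-11), and Scd1, which desaturates stearate, read 8.41, 8.57, 8.62 and 8.46 in DBA/2 foam cells, against 9.71, 9.63, 9.51 and 9.79 in AKR foam cells (-1.15 ± 0.081, adjusted p = 1.78e-11). Neither overlapped between the strains, and both were also lower in unloaded DBA/2 cells, by -0.67 and -0.69. For Acaca, acetyl-CoA carboxylase, one probe gave -1.54 and the other 0.23, both called, so its direction depends on the probe. Of 19 genes of cholesterol synthesis 31.6% were called, against 29.7% of all genes. In this list 13 were not called, 4 were lower (Insig1, which retains SREBP in the endoplasmic reticulum, -0.57, and the enzymes Fdps, -0.54, Sqle, -0.38, and Hsd17b7, -0.29) and 2 higher. One of these was Stard4, a cholesterol carrier (1.14 ± 0.092, adjusted p = 2.2e-10), which differed by a similar amount in unloaded cells (1.03), and the other was Nsdhl, an enzyme of the pathway (0.24), whose direction turned when the median of its 3 probes was taken (-0.14, adjusted p = 0.146). The call for Hsd17b7 was lost without any 1 of 3 foam cell arrays (DBA/2 arrays 1 and 2 and AKR array 3), and that for Nsdhl without any 1 of 4 (DBA/2 arrays 1 and 4 and AKR arrays 2 and 4).

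PPAR targets and fatty acid oxidation were divided, with 5 of 13 genes higher (3 without DBA/2 foam cell array 2 or AKR foam cell array 3) and 3 lower. Lpl, lipoprotein lipase, read 12.37, 12.56, 12.40 and 12.48 in DBA/2 foam cells, against 11.92, 11.86, 11.61 and 11.77 in AKR foam cells (0.66 ± 0.082, adjusted p = 3.47e-07), and unloaded strains lay -0.071 apart. Angptl4, an inhibitor of lipoprotein lipase, was higher too (1.23 ± 0.11, adjusted p = 1.18e-09), its second probe differing by 0.23 without a call. The nuclear receptor Pparg (-0.94 ± 0.090, adjusted p = 5.45e-09) and the fatty acid carrier Fabp5 (-0.96 ± 0.079, adjusted p = 3.36e-10) were lower. Among 11 scavenger receptors 4 were higher and 2 lower. Marco, which takes up modified lipoproteins and bacteria, read 10.24, 10.16, 10.01 and 10.07 in DBA/2 foam cells, against 9.38, 9.32, 9.12 and 9.29 in AKR foam cells (0.85 ± 0.086, adjusted p = 1.45e-08), whereas the difference between unloaded cells was not called (-0.027 ± 0.086, adjusted p = 0.837). Cxcl16, both a chemokine and a receptor for oxidised LDL, was higher (0.91 ± 0.075, adjusted p = 3.37e-10), and Colec12, a collectin, and Lrp1, a large endocytic receptor, were lower (-1.09 and -0.75), though the second probe of Colec12 was not called (-0.36).

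Lysosomal genes moved in both directions. Of 39 hydrolases 7 were higher and 13 lower in DBA/2 foam cells. The cathepsins were split. Ctsh, an aminopeptidase, read 10.99, 10.80, 10.89 and 10.84 in DBA/2 foam cells, against 8.51, 8.58, 8.55 and 8.46 in AKR foam cells (2.35 ± 0.066, adjusted p = 2.07e-19), with 2.02 in unloaded cells. Ctsc, which activates serine proteases of granules, differed by 1.10 ± 0.065, adjusted p = 5.92e-13 in foam cells and by 0.063 ± 0.065, adjusted p = 0.482 in unloaded cells, and both its probes were higher. Ctsk, a collagenolytic cathepsin, read 8.94, 9.38, 9.04 and 9.11 in DBA/2 foam cells, against 10.81, 10.76, 10.79 and 10.89 in AKR foam cells (-1.70 ± 0.082, adjusted p = 1.18e-14), and Napsa, an aspartic protease, was lower with both its probes (-1.51 ± 0.066, adjusted p = 1.92e-15). Naglu, which degrades heparan sulfate, differed by -0.95, while the main proteases Ctsd and Ctss were not called (-0.12 and -0.18). Of the 2 probes of Ctsb, the brighter was not called (-0.17) and the other was lower (-0.72). Lipa, the acid lipase that frees cholesterol from AcLDL, read 12.62 ± 0.16 in DBA/2 and 12.36 ± 0.011 in AKR foam cells (0.27 ± 0.094, adjusted p = 0.027).

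Of 18 lysosomal membrane proteins 3 were higher and 6 lower. The call of 1 higher gene was lost without any 1 of the 8 foam cell arrays. That of 1 lower gene was lost without any 1 of 3. Gpnmb, a glycoprotein of stressed lysosomes, was lower with all 4 of its probes (-1.68 to -4.63), and the brightest read 12.42, 12.46, 12.14 and 12.36 in DBA/2 foam cells, against 14.08, 14.14, 13.96 and 13.93 in AKR foam cells, with a like difference in unloaded cells (-1.74). Ctns, the cystine exporter, differed by -0.79 ± 0.082, adjusted p = 2.05e-08, and Lamp2 by 0.49 ± 0.073, adjusted p = 5.97e-06. Of 15 subunits of the V-ATPase, the proton pump that acidifies lysosomes, 5 were lower and 1 higher (40.0% called, against 29.7% of all genes). Tcirg1, a membrane subunit, read 11.36, 11.44, 11.24 and 11.35 in DBA/2 foam cells, against 12.22, 12.34, 12.36 and 12.36 in AKR foam cells (-0.97 ± 0.075, adjusted p = 1.04e-10), all 3 of its probes were lower, and unloaded strains lay 0.066 apart. Atp6v1c1 and Atp6v1a, of the cytosolic sector, differed by -0.88 and -0.68, and Atp6v1d by 1.72, with 1.96 in unloaded cells. Of 23 genes of sorting, adaptors and clathrin 6 were higher and 5 lower, led on the lower side by Gnptab and Igf2r, which place and bind the mannose 6-phosphate tag of hydrolases (-0.95 and -0.76). In this sorting list 1 higher gene lost its call without any 1 of 6 foam cell arrays.

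Of 26 regulators of the MiT/TFE factors and of autophagy 6 were higher and 6 lower. Sqstm1, the cargo receptor p62, read 11.54, 11.69, 11.62 and 11.62 in DBA/2 foam cells, against 12.51, 12.43, 12.32 and 12.31 in AKR foam cells (-0.78 ± 0.068, adjusted p = 1.15e-09), although it was higher in unloaded DBA/2 cells (0.39). Rragd and Flcn, which act on the nutrient switch of TFEB and TFE3 at the lysosome, were lower (-0.69 and -0.65), with unloaded differences of 0.053 and 0.02, and Tecpr1, which tethers autophagosomes, was lower (-1.05 ± 0.12, adjusted p = 4.69e-08). The autophagy enzyme Atg7 (0.80 ± 0.071, adjusted p = 1.14e-09), the kinase Ulk1 (0.51) and the factor Tfe3 (0.56) were higher.

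The Fc receptor and C-type lectin lists were mostly higher in DBA/2 foam cells. Of 7 Fc receptor genes 5 were higher and only Fcer1g lower. Fcrls, an Fc receptor-like scavenger protein of macrophages, read 10.93, 9.94, 10.58 and 10.58 in DBA/2 foam cells, against 8.76, 8.99, 8.74 and 8.89 in AKR foam cells (1.66 ± 0.14, adjusted p = 3.79e-10), and unloaded strains were level, at 11.78 ± 0.17 in unloaded DBA/2 and 11.79 ± 0.21 in unloaded AKR cells. Fcgr1, the high affinity receptor for IgG, was higher in foam cells (0.67 ± 0.077, adjusted p = 1.31e-07) and lower in unloaded cells (-0.27 ± 0.077, adjusted p = 0.00734). Fcgrt, which recycles IgG (1.10), and Fcgr3 (0.50) were higher in both. Of 12 myeloid C-type lectins 7 were higher and 1 lower, with a median difference of 0.43, and the interaction was positive in 7. Clec4a1, a lectin of the DCIR group, read 10.70, 10.80, 10.90 and 10.88 in DBA/2 foam cells, against 9.12, 8.85, 9.29 and 9.02 in AKR foam cells, while unloaded cells read 11.01 ± 0.055 in unloaded DBA/2 and 10.83 ± 0.15 in unloaded AKR cells, an interaction of 1.57 ± 0.12, adjusted p = 8.52e-10. Clec10a, a galactose lectin, Clec7a, which binds fungal glucan, and Clec4n, which binds mannans, differed by 1.38, 0.96 and 0.70, and Clec4e, the receptor Mincle, was lower (-0.58 ± 0.097, adjusted p = 3.37e-05).

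SLAM and CD300 receptors differed in opposite directions. Of 10 genes 2 were higher, Slamf9 and Cd300ld, and 6 lower, and the median difference was -0.63. Cd300lf, an inhibitory receptor, read 6.44, 6.49, 6.38 and 6.29 in DBA/2 foam cells, against 8.09, 8.25, 8.16 and 8.26 in AKR foam cells (-1.79 ± 0.070, adjusted p = 1.86e-16), against an unloaded difference of -0.28. Slamf8, which limits oxidant production in phagocytes, was lower (-1.55 ± 0.12, adjusted p = 6.5e-11), as were Cd84 (-0.79) and Cd300lb (-0.75). Of 19 Toll-like receptors and adaptors 7 were higher and 3 lower, and the interaction was positive in 7. Cd14, the co-receptor for lipopolysaccharide, read 13.14, 13.31, 13.34 and 13.31 in DBA/2 foam cells, against 12.04, 11.94, 12.24 and 12.14 in AKR foam cells (1.19 ± 0.072, adjusted p = 1.08e-12). Irak3, an inhibitor of the pathway, differed by 1.49 ± 0.076, adjusted p = 3.27e-14 with 0.098 in unloaded cells, Tlr2 by 1.19 ± 0.065, adjusted p = 1.15e-13, and Tlr1, the partner of Tlr2, was lower (-0.84 ± 0.085, adjusted p = 1.23e-08). Of 10 purinergic genes 5 were higher, led by P2ry6, a receptor for UDP (1.03 ± 0.065, adjusted p = 1.92e-12), and P2ry1, another receptor for ADP, was lower (-2.00 ± 0.076, adjusted p = 1.21e-16). Ms4a6b and Ms4a6c, tetraspanning membrane proteins of myeloid cells, were higher (1.12 and 1.21) with interactions of 1.33 and 1.60.

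In all, 6 of 19 chemokine and receptor genes were higher in DBA/2 foam cells and 6 lower. The CXC ligands Cxcl1 (1.18 ± 0.079, adjusted p = 6.51e-12) and Cxcl2 (1.15 ± 0.11, adjusted p = 4.23e-09), which attract neutrophils, were higher in DBA/2 foam cells, as they were in unloaded cells (0.84 and 1.21). The monocyte attractants Ccl7, Ccl8 and Ccl2, neighbours on chromosome 11, were lower. Ccl7 read 9.16, 9.40, 9.51 and 9.26 in DBA/2 foam cells, against 11.41, 11.29, 11.31 and 11.37 in AKR foam cells (-2.01 ± 0.090, adjusted p = 2.72e-15), and Ccl8 and Ccl2 differed by -0.93 and -0.89, with unloaded differences of -1.76, -0.83 and -0.62 for the 3 genes. Of 20 cytokine and NF-kB feedback genes 9 were higher and 3 lower. Behind Il1b came Zfp36, which destabilises cytokine mRNAs (0.89 ± 0.059, adjusted p = 7.09e-12), and the cytokine Il10 (0.76 ± 0.11, adjusted p = 2.58e-06). Tnfaip3, the ubiquitin-editing inhibitor of NF-kB, was lower in DBA/2 foam cells (-0.71 ± 0.079, adjusted p = 5.9e-08) and higher in unloaded DBA/2 cells (0.52 ± 0.079, adjusted p = 8.41e-06).

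Interferon-induced genes showed no shared direction, with 4 of 30 higher, 7 lower and a median of 0.059. In this list 36.7% were called, against 29.7% of all genes. The transcription factors Irf5 and Irf1 were higher (0.76 and 0.62), Ifitm3, which blocks virus entry, was higher (0.58 ± 0.062, adjusted p = 3.48e-08), and Trim25, Oas1g and Bst2, antiviral effectors, were lower (-0.70, -0.70 and -0.43). Of 6 immunity-related and guanylate-binding GTPases 3 were higher and none lower, led by Igtp (0.57 ± 0.068, adjusted p = 2.12e-07), and all 3 were higher in unloaded DBA/2 cells too. Among these 3, 1 lost its foam cell call without any 1 of 6 foam cell arrays. The interferon-stimulated response element, searched as GAAANNGAAA on both strands, was found in all 6 GTPases, called or not, against 3.99% of all genes with a promoter. In antigen presentation, both subunits of the H2-DM peptide exchanger differed, in opposite directions. H2-DMa read 8.98 ± 0.14 in DBA/2 and 6.88 ± 0.22 in AKR foam cells (2.10 ± 0.098, adjusted p = 5.4e-15) and H2-DMb1 7.52 ± 0.17 in DBA/2 and 8.90 ± 0.15 in AKR foam cells (-1.39 ± 0.088, adjusted p = 2.31e-12), and both probes of H2-DMb1 were lower. Cd74, the invariant chain of class II, differed by -0.34 ± 0.079, adjusted p = 0.00132. The 2 probes of the class II gene H2-Ab1 disagreed in sign (1.21 and -0.95). Tap1, the peptide transporter, differed by 0.45 ± 0.071, adjusted p = 1.23e-05, and the class I genes H2-M3 and H2-T10 by 0.57 and -1.42.

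Complement genes were in part reversed relative to the unloaded cells. Of 13 genes 5 were higher (3 without DBA/2 foam cell array 4) and 2 lower in DBA/2 foam cells, where 1 had been higher and 7 lower without AcLDL, and the interaction was positive in 8 and negative in none. C1qa, a chain of the first component, was higher in DBA/2 foam cells (0.38 ± 0.075, adjusted p = 0.000213) and lower in unloaded DBA/2 cells (-0.74 ± 0.075, adjusted p = 2.06e-08). Its partner C1qb was lower in both, by less in foam cells (-0.34) than in unloaded cells (-1.31), with an interaction of 0.97 ± 0.12, adjusted p = 1.08e-06. Cd55, which protects cells from complement, read 8.70, 8.25, 8.62 and 8.51 in DBA/2 foam cells, against 6.40, 6.50, 6.43 and 6.37 in AKR foam cells (2.09 ± 0.089, adjusted p = 1e-15). Itgam, the complement receptor chain CD11b, read 8.97, 8.81, 9.17 and 9.10 in DBA/2 foam cells, against 7.89, 8.04, 8.11 and 8.03 in AKR foam cells (0.99 ± 0.080, adjusted p = 2.17e-10), and unloaded strains lay -0.035 apart. It was one of 6 integrin genes higher among 13, none of which was lower (median 0.27). Itgb7 and Itga6, chains for adhesion to mucosal addressin and to laminin, were also higher, by 0.92 and 0.76, and had been so in unloaded cells (0.82 and 0.53).

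The receptors for dying cells divided between a pair of related kinases. Axl read 10.26, 9.90, 10.21 and 10.01 in DBA/2 foam cells, against 8.94, 8.80, 8.52 and 8.62 in AKR foam cells (1.37 ± 0.11, adjusted p = 1.93e-10), and Mertk read 9.19, 9.10, 9.04 and 9.13 in DBA/2 foam cells, against 10.21, 10.45, 10.23 and 10.13 in AKR foam cells (-1.14 ± 0.078, adjusted p = 9.12e-12), so that DBA/2 foam cells had more of one and less of the other, as had unloaded DBA/2 cells (0.66 and -0.95). Of 15 genes of apoptotic cell uptake 6 were higher and 4 lower. The bridging protein Mfge8 was higher (0.51) and the ligand of both kinases, Gas6, lower (-0.41). Elmo1, which activates Rac in engulfment, differed by -0.31, and 10 of its 11 probes were lower. Among 18 matrix genes 7 were higher and 2 lower. Adam8, a membrane protease, read 10.41, 10.47, 10.57 and 10.57 in DBA/2 foam cells, against 8.55, 8.66, 8.60 and 8.40 in AKR foam cells (1.96 ± 0.085, adjusted p = 1.47e-15), Tgfbi, an adhesive matrix protein induced by TGF-beta, read 11.89, 11.89, 11.90 and 11.94 in DBA/2 foam cells, against 9.95, 10.05, 10.07 and 10.09 in AKR foam cells (1.86 ± 0.059, adjusted p = 2.86e-18), and the collagenase Mmp13 differed by 1.03 ± 0.083, adjusted p = 2.24e-10. Both probes of Adam8 and of Tgfbi were higher.

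Arginine metabolism differed at both ends. Arg1, arginase, read 10.95, 11.69, 11.02 and 11.12 in DBA/2 foam cells, against 10.12, 9.89, 10.20 and 10.28 in AKR foam cells (1.07 ± 0.17, adjusted p = 1.75e-05), far above the unloaded levels of 7.99 ± 0.080 in unloaded DBA/2 and 7.53 ± 0.53 in unloaded AKR cells, and Ass1, which remakes arginine from citrulline, was higher with 1.61 ± 0.073, adjusted p = 3.06e-15 and had been higher in unloaded cells (1.10). The interaction for Arg1 was 0.62 ± 0.24, adjusted p = 0.0663. The alternative activation genes Mgl2, a lectin, and Il4ra, the interleukin 4 receptor, were higher (1.12 and 0.52), and Tgm2, a transglutaminase, was lower (-0.57). Of 15 genes of iron and heme 5 were higher and 5 lower. Slc40a1, the iron exporter ferroportin, read 9.65, 9.38, 9.54 and 9.60 in DBA/2 foam cells, against 8.04, 8.16, 8.01 and 8.10 in AKR foam cells (1.47 ± 0.081, adjusted p = 1.51e-13), and Tfrc, the transferrin receptor, 11.82, 11.04, 11.75 and 11.44 in DBA/2 foam cells, against 12.28, 12.23, 12.09 and 12.20 in AKR foam cells (-0.69 ± 0.12, adjusted p = 4.24e-05).

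Genes of DNA replication stood in another direction in foam cells than in unloaded cells. Of 24 genes 8 were higher and 2 lower in DBA/2 foam cells, whereas in unloaded cells none was higher and 20 were lower, the medians being 0.12 and -0.55, and the interaction was positive in 17 and negative in none. Mcm5, a subunit of the replicative helicase, read 8.98, 9.16, 9.12 and 8.98 in DBA/2 foam cells, against 8.46, 8.68, 8.43 and 8.44 in AKR foam cells (0.56 ± 0.086, adjusted p = 9.77e-06), against 8.78 ± 0.12 in unloaded DBA/2 and 9.50 ± 0.18 in unloaded AKR cells. Uhrf1, which keeps DNA methylation through replication, read 8.62 ± 0.13 in DBA/2 and 8.15 ± 0.17 in AKR foam cells (0.47 ± 0.094, adjusted p = 0.000248), against 8.07 ± 0.16 in unloaded DBA/2 and 9.31 ± 0.16 in unloaded AKR cells (-1.23 ± 0.094, adjusted p = 1.18e-10). In both genes unloaded AKR cells had the highest level and AKR foam cells a lower one. Of 19 genes of mitosis 8 were higher and none lower, with 5 higher without DBA/2 foam cell array 1 and 4 without DBA/2 array 2 or AKR array 3. Cdk1, the mitotic kinase, was higher in foam cells (0.54 ± 0.092, adjusted p = 3.54e-05) and lower in unloaded cells (-0.35 ± 0.092, adjusted p = 0.00401), while Cenpa, the centromeric histone, and Kif23, a motor of cytokinesis, were higher in both (foam cells 0.80 and 0.70, unloaded cells 1.32 and 1.10).

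Of 22 genes of glycolysis and the hypoxia response 4 were higher and 4 lower (36.4% called, against 29.7% of all genes). Ndrg1, a hypoxia- and stress-induced gene, was lower with both its probes (10.01 ± 0.095 in DBA/2 and 11.45 ± 0.068 in AKR foam cells, difference -1.44 ± 0.080, adjusted p = 1.78e-13), and Vegfa, the vascular growth factor, was higher (0.56 ± 0.077, adjusted p = 1.96e-06), by less than in unloaded cells (0.97). Of 21 genes of the NRF2 antioxidant response 8 were higher and 5 lower. Prdx1, a peroxiredoxin, and Nqo1, a quinone reductase, were higher (0.60 ± 0.062, adjusted p = 2.19e-08 and 0.56 ± 0.078, adjusted p = 2.17e-06), as was Sod2, mitochondrial superoxide dismutase (0.75). Hmox1, heme oxygenase, and Nfe2l2, which encodes NRF2, were lower (-0.39 and -0.55), and the interaction was called for both. Of 29 proteasome subunits 22 were not called (24.1% called, against 29.7% of all genes). Besides Psmb6 the lower ones included Psmd2 and Psmd8 of the regulatory particle (-0.97 and -0.61).

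**Figure D4:**
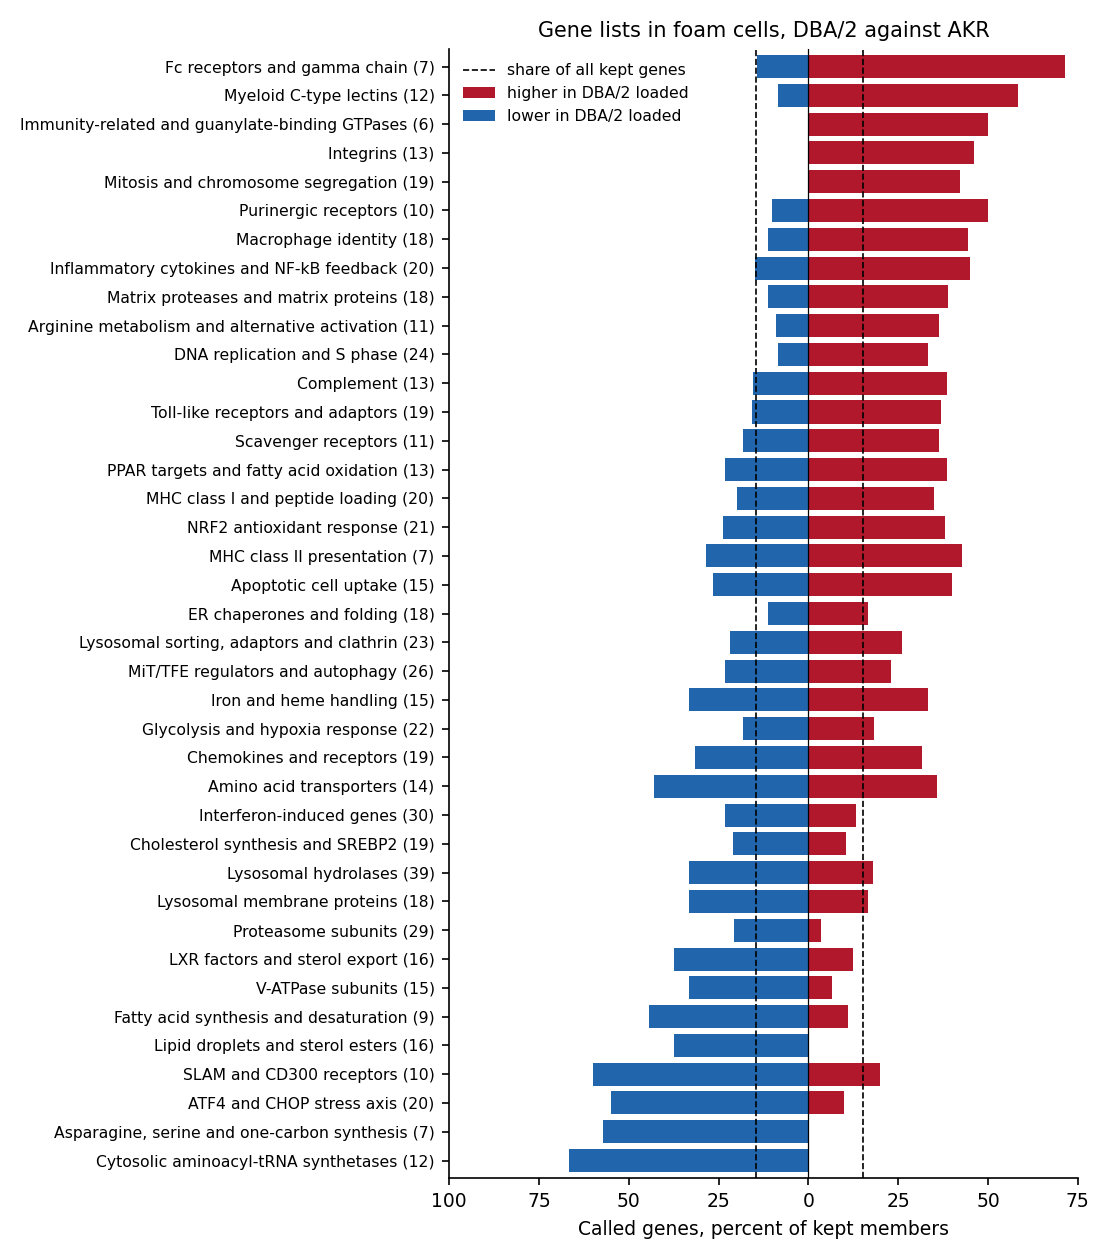
Percent of the measured genes of each list with at least 6 such genes that were called higher (right) or lower (left) in DBA/2 foam cells than in AKR foam cells. Dashed lines mark the shares over all 9312 genes, 15.1% higher and 14.6% lower.

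The arrays carried the markers of macrophages. Lyz2, lysozyme, read 14.22 ± 0.022 in DBA/2 and 14.37 ± 0.045 in AKR foam cells and Tyrobp, an adaptor of myeloid receptors, 12.31 ± 0.10 in DBA/2 and 12.31 ± 0.054 in AKR foam cells, and neither was called by its brightest probe (-0.16 ± 0.058, adjusted p = 0.0327 and 0.005 ± 0.065, adjusted p = 0.96). The Lyz2 probe lay close to the highest value of the table (14.41), and the second Lyz2 probe was called higher (0.28). Of 18 macrophage markers 8 were higher and 2 lower. Adgre1, the F4/80 antigen, read 13.22, 13.08, 13.03 and 12.95 in DBA/2 foam cells, against 11.997, 11.98, 11.95 and 11.90 in AKR foam cells (1.11 ± 0.097, adjusted p = 1.08e-09), but its second probe differed by -0.0097. Aif1, an actin-binding protein of macrophages, was higher with both its probes (1.42 ± 0.092, adjusted p = 3.87e-12), with an unloaded difference of -0.081. The summed intensity of the 18 markers was 64340 to 65680 in DBA/2 and 55580 to 57210 in AKR foam cells. In such bulk samples fewer cells of a type and less RNA per cell cannot be told apart.

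Markers of T and NK cells (summed intensity 669 to 705 in DBA/2 and 672 to 694 in AKR foam cells over 13 genes), B cells (502 to 524 and 517 to 543 over 8) and dendritic cells (582 to 631 and 593 to 600 over 10) had no member called. Only 3, 5 and 5 of these genes passed the filter, and the others were not tested. Of the neutrophil, stromal, osteoclast, and mast and erythroid markers that follow, 6, 4, 7 and 4 passed the filter and were tested. Of 14 neutrophil markers 2 were higher in DBA/2, S100a8 and Lcn2, a siderophore-binding protein (1.26 ± 0.074, adjusted p = 4.43e-13), and the summed level was 3718 to 4408 in DBA/2 and 2323 to 2477 in AKR foam cells, while the defining markers S100a9, Ngp, Mpo, Elane and Ltf were below the table median. Of 11 stromal markers Dcn, decorin, read 8.19, 8.52, 8.35 and 8.35 in DBA/2 foam cells, against 5.73, 5.74, 5.74 and 5.76 in AKR foam cells (2.61 ± 0.088, adjusted p = 1.1e-17), and Acta2, smooth muscle actin, differed by 0.62 ± 0.079, adjusted p = 6.09e-07. The summed stromal level was 1077 to 1172 in DBA/2 and 732 to 772 in AKR foam cells, and the collagens Col1a1, Col1a2 and Col3a1 were below the table median. Unloaded DBA/2 cells also exceeded unloaded AKR cells in Dcn (1.72). Of the osteoclast markers Ctsk was lower and Nfatc1 and Dcstamp higher (0.39 and 0.53, with 3 of the 6 probes of Nfatc1 called), with sums of 5124 to 6679 and 5876 to 6715, and Acp5 and Calcr were below the table median. Of 11 mast and erythroid markers only Tfrc was called, lower, and the summed level of 2719 to 4248 in DBA/2 and 4954 to 5599 in AKR foam cells did not overlap, while Cpa3, Kit and Hba-a1 were below the table median. The part of these cells in the differences above was not tested.

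The same strains were compared as foam cells in the male series, at 50 ug/ml. There, 1200 of 9356 genes were called (12.8%, by probe 12.1%) with all arrays. An unloaded AKR array and a loaded AKR array (numbers 1 and 2 of their groups) correlated better with the opposite AKR group than with their own, and 1955 of 9472 genes were called without them (20.6%, by probe 19.2%). Dose, sex, AcLDL preparation and chip version all differ between the series and cannot be told apart, so values are set side by side. Of 7173 genes measured in both, 636 were called in both, which is 26.0% of those called at 100 ug/ml and 60.6% of those called at 50 ug/ml, and in 582 of them the sign of the difference matched (312 positive, 270 negative). Without the 2 arrays 1024 were called in both, 947 in the same direction.

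Most genes with the largest differences at 100 ug/ml also differed in male foam cells. Of the 22 leading genes measured there, 17 were called in the same direction, with all arrays and without the 2. Among all 250 genes named by rule, 236 were measured there, and 182 had the same sign with all male arrays. Of these 236, 67 were called in the same direction and 8 in the opposite one. Of the 37 genes of both groups of leading genes, 24 were read from the same probe in both series and 13 from another one, Fcer1g, Psmb6, Il1b and Trib3 among them. Fcer1g differed by -8.01 in female foam cells, with DBA/2 values below the table median, and by -8.33 in male foam cells, Prcp by 3.62 and 3.63, Cd300ld by 2.97 and 2.94, Cxcl14 by 2.82 and 4.20, and Psmb6 by -4.01 and -5.99. The H2-K1 probes of the 2 chips differ and no direction is given for it. Il1b (2.91 and -0.44) and Ccl5 (-4.34 and 0.24) were not called in male foam cells, at adjusted p = 0.239 and 0.68.

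The genes with the largest interactions depended on the arrays in doubt. Of the 16, none was called in the same direction with all male arrays and 7 were without the 2. Chac1 read 6.46, 6.69, 6.80 and 6.86 in male DBA/2 foam cells, against 8.90, 5.66, 9.31 and 9.56 in male AKR foam cells, where the array in doubt held the low AKR value and the other 3 lay above every DBA/2 value. Its difference was -1.66 ± 0.86, adjusted p = 0.198 with all arrays and -2.55 ± 0.25, adjusted p = 1e-06 without the 2. Trib3 read 4.92, 5.03, 5.37 and 5.11 in male DBA/2 foam cells, against 6.77, 4.81, 7.05 and 6.72 in male AKR foam cells, and its difference without the 2 arrays was -1.74 ± 0.14, adjusted p = 1.38e-07. Slamf9 read 7.55, 8.24, 8.29 and 8.18 in male DBA/2 foam cells, against 6.25, 8.31, 6.16 and 6.55 in male AKR foam cells, the same array standing among the DBA/2 values (1.74 ± 0.17, adjusted p = 7.96e-07 without the 2). Atf4, Ddit3 and Asns differed by -0.80, -1.39 and -1.21 without the 2 arrays, each of them called, and none of the 3 was called with all arrays. S100a8 was lower in male DBA/2 foam cells (-1.38 ± 0.20, adjusted p = 9.46e-05), opposite to the female foam cells, and Serpinb2 differed by -0.028 (adjusted p = 0.939) without the 2 arrays. Ddit4 (-0.87, adjusted p = 0.00211) and Lrp1 (0.59, adjusted p = 0.00338) were also called opposite to the female foam cells, with all male arrays. Both were among the 8 named genes called opposite, against 67 called in the same direction. Clec4n and Nqo1 were higher in female DBA/2 foam cells. In males every DBA/2 value (10.25 to 10.62 and 5.15 to 5.60) lay below every AKR value (11.12 to 11.76 and 5.95 to 6.29). Cxcl1, Cxcl2 and Vegfa were higher in female DBA/2 foam cells too. For these, the 3 male AKR foam cell arrays not in doubt lay above every male DBA/2 value. Slc7a11, higher in female DBA/2 foam cells, differed by -2.03 (adjusted p = 1.54e-06) without the 2 arrays. Ddit4 and Slc7a11 were read from other probes in the male series.

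**Figure D5:**
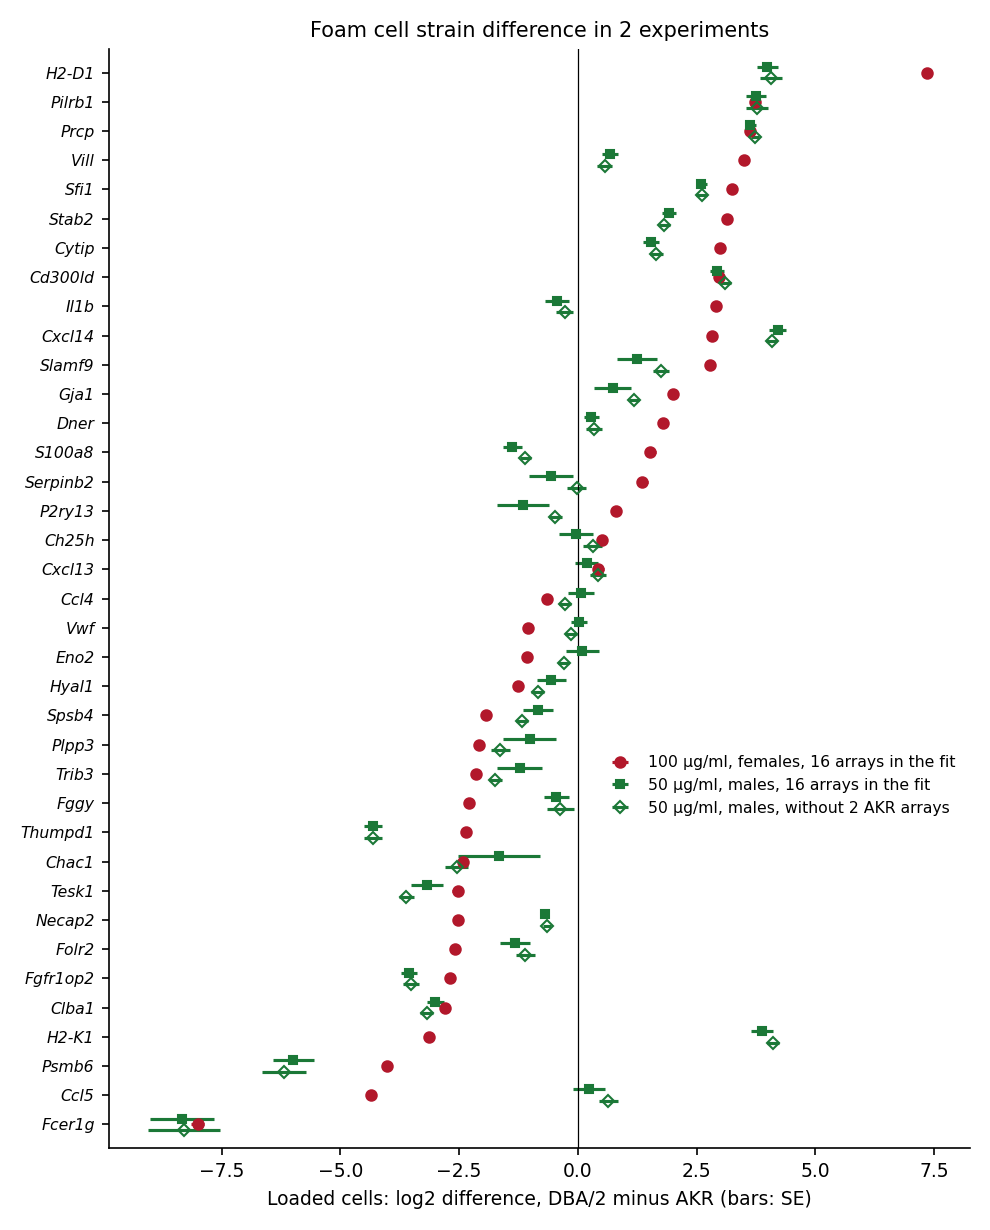
Strain difference in foam cells (DBA/2 minus AKR, log2, bars SE) of the 37 leading genes measured in both series, at 100 ug/ml in females (circles) and at 50 ug/ml in males, with all male arrays (squares) and without the 2 AKR arrays (diamonds). Fcer1g, Psmb6, Prcp and Cxcl14 lie on the same side in both.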

How the data were processed

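The authors deposited quantile-normalised log2 intensities of Illumina MouseRef-8 chips, made with lumi 2.6.0 in a table per chip version, with all probes included (24613 at 100 ug/ml). The removal of polymorphic and of undetected probes that the methods describe had not been applied to these tables, and detection p-values were not used here. Groups came from the sample labels, and arrays are numbered as in their titles.

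Here, probes were kept if the brightest of the 4 groups averaged above the table's median value (5.98, 13339 probes, and 4.29 at 50 ug/ml), and limma 3.58.1 (R 4.3.3) was fitted per table over 16 arrays with strain, loading and their interaction, with Benjamini-Hochberg adjustment and calls at an adjusted p below 0.01. The step was first tested on simulated data. Gene names came from the platform annotation, 20984 probes having 1 name, 1 several and 3628 none, and were updated to GRCm38.p6. A gene was read from its brightest kept probe, which left 9312 genes. Python 3.11.15, pandas 2.3.3 and matplotlib 3.10.9 served for motif counts and plots.

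The genes named were the 12 with the largest differences in each direction among called genes without overlap, the 8 with the largest interactions in each direction among genes called for both, up to 4 called genes per direction in each of 49 lists, and defining markers. A further 16 genes (Abca1, Acta2, Apoe, Atf3, Atf4, Ctsb, Ctsd, Ctss, Dcn, Dcstamp, Ddit3, Hspa5, Lipa, Lyz2, Nfatc1 and Tyrobp) are markers or were chosen after their values were seen. The comparison, its members and its lists were chosen with earlier results of these data known. Alternatives were no filter, a stricter filter (7.27, the 75th percentile), cyclic loess, 50 added to the linear values, an intensity trend, the replicate number as a block, the loaded arrays alone, the median over probes and leaving out each foam cell array in turn. A block of arrays 1 and 2 against 3 and 4 was added after seeing the data.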

Additional observations from a re-analysis of the deposited data

Results flagged for a closer look

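In 28 of the 406 groups of 4 foam cell arrays over the 203 genes named in the text (6.90%), 1 array lay farther from the other 3 than Dixon's criterion allows, where chance gives about 1 group in 20. In DBA/2 foam cells these were Slamf9 (10.4 in array 1, against 10.55 to 10.56 in the other 3), Slc43a2 (6.909 in array 2, against 7.001 to 7.009 in the other 3), Rars (8.993 in array 3, against 8.858 to 8.864 in the other 3), Cxcl16 (12.37 in array 3, against 12.17 to 12.19 in the other 3), Lamp2 (11.7 in array 1, against 11.82 to 11.84 in the other 3) and Atp6v1a (11.3 in array 4, against 11.56 to 11.61 in the other 3). The other DBA/2 cases were Ccl2 (8.091 in array 1, against 8.591 to 8.664 in the other 3), Clec4e (9.06 in array 2, against 9.264 to 9.278 in the other 3), Cd14 (13.14 in array 1, against 13.31 to 13.34 in the other 3), C1qb (10.1 in array 4, against 9.723 to 9.765 in the other 3), Ass1 (9.79 in array 1, against 9.928 to 9.949 in the other 3) and Uhrf1 (8.42 in array 4, against 8.665 to 8.704 in the other 3). In AKR foam cells these were H2-K1 (11.16 in array 2, against 10.67 to 10.75 in the other 3), Clba1 (9.215 in array 3, against 9.447 to 9.472 in the other 3), Dner (6.436 in array 2, against 6.214 to 6.221 in the other 3), Farsa (8.098 in array 2, against 7.85 to 7.882 in the other 3), Pparg (7.458 in array 2, against 7.56 to 7.564 in the other 3), Tcirg1 (12.22 in array 1, against 12.34 to 12.36 in the other 3), Ifitm3 (12.62 in array 2, against 12.72 to 12.74 in the other 3) and H2-DMb1 (8.672 in array 2, against 8.954 to 8.999 in the other 3). The other AKR cases were Fcgrt (10.66 in array 2, against 10.4 to 10.43 in the other 3), Clec7a (7.091 in array 3, against 7.334 to 7.349 in the other 3), Clec4e (9.655 in array 4, against 9.82 to 9.849 in the other 3), Slamf8 (8.275 in array 4, against 7.825 to 7.864 in the other 3), Cd300lb (8.384 in array 4, against 8.514 to 8.534 in the other 3), Il4ra (8.572 in array 3, against 8.857 to 8.903 in the other 3), Mcm5 (8.68 in array 2, against 8.431 to 8.462 in the other 3) and Abca1 (6.988 in array 1, against 6.521 to 6.534 in the other 3). The foam cells of the strains overlapped for Abca1 and for no other of these genes.

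The interaction was called (limma, adjusted p below 0.01) in 12 of the 24 genes with the largest foam cell differences, against 15.8% of all genes. These 24 were chosen for their foam cell difference, which is a term of the interaction. A higher share of calls is favoured by that choice, and the count is a description. The 16 genes with the largest interactions were chosen for that call, so their values are a description too. The interaction was positive for Slamf9 (2.60), P2ry13 (1.88), S100a8 (1.84), Gja1 (1.83), Ch25h (1.80), Dner (1.75), Serpinb2 (1.75), Cxcl13 (1.74), Cxcl14 (1.66), Folr2 (0.68), Cd300ld (0.58), Cytip (0.52), Fggy (0.46). It was negative for Chac1 (-2.68), Trib3 (-2.30), Vwf (-2.08), Plpp3 (-1.73), Spsb4 (-1.69), Eno2 (-1.67), Hyal1 (-1.62), Ccl4 (-1.57), Tesk1 (-1.48), Clba1 (-1.03), Gpr137b-ps (-0.59), Sfi1 (-0.45), Psmb6 (-0.36), H2-D1 (-0.36).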

How the results depend on the processing

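At 100 ug/ml, 3838 probes were called between the foam cells, 1838 higher and 2000 lower in DBA/2. Leaving out 1 foam cell array at a time gave 3417 to 3532 probes (1630 to 1687 higher and 1784 to 1845 lower, with 233 to 239 at least 2-fold higher and 167 to 177 at least 2-fold lower), and the other alternatives gave 3157 to 4070. The interaction was called in 1980 probes, and in 1683 to 1981 with 1 array left out. It was called together with the foam cell difference in 1264 probes (1061 to 1222), of which 761 (631 to 728) were not called between unloaded strains. The replicate numbers did not pair the arrays, since the deviations of same-numbered foam cell arrays correlated at 0.037 to 0.16, with 2 of 4 pairs over 0.1. With the replicate number as a block, 4014 probes were called in foam cells and 2118 for the interaction.

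At 50 ug/ml, 1659 probes were called, 830 higher and 829 lower in DBA/2, and 1239 to 1853 with 1 array left out (614 to 911 higher and 621 to 942 lower). Without the 2 AKR arrays in doubt 2669 were called, 1284 higher and 1385 lower. With 50 added to the linear values, 116 probes were at least 2-fold higher and 73 at least 2-fold lower, against 229 and 209 without it (210 to 283 and 192 to 275 with 1 array left out). The replicate block gave 1745 calls.

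Of 4497 values for 266 genes under the alternatives, 4404 kept their direction and their side of the threshold, 91 lost the call and Lyz2 gained one (-0.16, adjusted p = 0.00523, with 50 added). Nsdhl reversed (-0.14, median over probes). List medians moved by more than their spread in 19 lists with the stricter filter, 11 without a filter, 5 with 50 added and 3 with the median over probes. Of the medians given, that of the C-type lectins ranged over the alternatives from 0.17 (no filter) to 0.50, that of the SLAM and CD300 receptors from -0.75 to -0.097 (no filter), that of the synthetases from -0.52 to -0.38, that of the integrins from 0.21 to 0.44 and that of the ATF4 and CHOP list from -0.39 to -0.31. Counts of called list members moved by over 1.5 times in few cases. The stricter filter left 2 amino acid transporters higher (against 5), 3 purinergic genes higher (5), 5 mitosis genes higher (8), 2 cholesterol synthesis genes lower (4), 1 chaperone lower (2) and 1 osteoclast marker higher (2). Without a filter 1 cholesterol synthesis gene and 1 sterol export gene were higher (2 each). The median over probes gave 3 amino acid transporters higher (5), 1 cholesterol synthesis gene higher (2) and 5 PPAR and fatty acid oxidation genes lower (3). With the block of arrays 1 and 2 against 3 and 4, 7 glycolysis and hypoxia genes were higher (4), and with the loaded arrays alone 2 arginine and alternative activation genes were lower (1). Of the B cell markers 1 was called lower under either block, and 1 higher and 1 lower with the loaded arrays alone, against none.

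The limits are few. Detection above background was not tested, because detection p-values were not used, and no detection limit is given for values near the table median. Probes over strain polymorphisms were not removed. With 4 arrays a group, from dishes not stated to be separate mice, small SEs describe these samples.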
